A study of Arabidopsis thaliana with 4 samples.

Results

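Transcript levels of 2 genes of the serine protease families, scpl35 and AT5G59130, were followed across the 4 arrays of a study of AS1 and AS2 in Arabidopsis thaliana. The members are the probe sets that the platform's naming table assigns to these names, which gave 1 probe set for each gene, 2 of the 22746 probe sets on the array. The gene scpl35 (AT5G08260) is listed by RefSeq as serine carboxypeptidase-like 35, and AT5G59130 was taken as a subtilase from the rule that chose it. Both lie on chromosome 5, and RefSeq lists 1 transcript for scpl35 and 4 for AT5G59130. The pair was chosen by the differences of its signals between these same arrays, so all levels and differences of both genes are a description and none is a test.

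The arrays came from shoot apices with leaf primordia, taken from Col-0 plants after 14 days on soil in long days (16 hours light, 8 hours dark). There was 1 array each for the as1-1 mutant, for the as2-1 mutant, for an AS2 overexpressing line and for wild type. AS1 belongs to the MYB and AS2 to the LBD family of nuclear proteins, both work together in young leaves, and the question of the series was which genes they control. The promoter that drives AS2, the number of plants behind each RNA and any replicate extraction are not given in the sources used here. Neither AS1 nor AS2 had a named probe set in the table used, so the mutated and the overexpressed gene were not checked on their own arrays. A free-text field of the samples speaks of embryos, which goes against the growth and tissue labels, and those labels were followed.

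Serine carboxypeptidases remove amino acids from the C-terminal end of peptides with a catalytic serine, and most act in vacuoles or outside the cell. Some plant relatives lost this activity and transfer acyl groups instead, as the Arabidopsis enzymes SNG1 and SNG2 do in making sinapate esters. Subtilases are serine proteases that are made with a signal peptide and an inhibitory propeptide, and most are secreted into the cell wall. Arabidopsis members act in stomatal patterning (SDD1), in the epidermal surface of the embryo (ALE1) and in the release of seed coat mucilage (ARA12).

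Both genes stood at least 2-fold from wild type in both mutants, in opposite directions, and scpl35 alone of the pair also did so in the AS2 overexpressing line. The level of scpl35 was lowest in wild type and between 2.66-fold and 3.43-fold higher on each of the other arrays. The level of AT5G59130 was 3.71-fold lower in as1-1 and 2.98-fold lower in as2-1 than in wild type, and 1.16-fold lower in the AS2 overexpressing line. Its mutant values lay at or just above the floor set for low signals, and with a floor at the 60th percentile both mutant differences became bounds of at least 1.24-fold. With 1 array per genotype there was no test and no error between arrays. In bulk apices, fewer cells that express a gene and less RNA per cell cannot be told apart.

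Signals were scaled so that the arrays had a common median over their brighter probe sets, and values under 42.9 units, the 40th percentile of all scaled values, were taken as at a floor below which low signals were not ranked. From 59.3% to 61.2% of probe sets on an array passed the floor. The tissue label could be checked on few genes, since 5 of its 34 listed marker genes had a named probe set. The leaf primordium genes YAB3 (362 to 434 units over the 4 arrays) and PHV (273 to 481 units) lay above the floor on all 4 arrays. YAB5 had 344 units in as1-1, 380 in as2-1, 4.98 in the AS2 overexpressing line, below the floor, and 152 in wild type. The summed signal of these 3 of 11 listed leaf primordium genes was 1005 units in as1-1, 1083 in as2-1, 887 in the AS2 overexpressing line and 890.5 in wild type. The last 2 sums are close although YAB5 was lower and PHV higher (481 against 305 units) in the AS2 overexpressing line than in wild type. Similar sums therefore do not show a similar content of primordia. The meristem gene CLV3 (1.57 to 23.5 units) and the root hair gene EXPA7 (2.77 to 16.3 units) lay below the floor on all 4 arrays, and no flower or seed marker was named. The part of tissue composition in the differences given here was not tested.

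The signal of scpl35 was 1656 units in as1-1, 1975 in as2-1, 1534 in the AS2 overexpressing line and 577 in wild type. The first 3 arrays lay close together, within 1.29-fold of each other, and the wild type array stood alone below them. Every value was far above the floor, from 13.4-fold above it in wild type to 46.1-fold in as2-1. The order of levels, from the top, was as2-1, as1-1, the AS2 overexpressing line and then wild type, with steps of 1.19-fold, 1.08-fold and 2.66-fold. Without replicates no step could be set against a spread between samples.

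The signal of AT5G59130 was 43.0 units in as1-1, 53.6 in as2-1, 138 in the AS2 overexpressing line and 159.6 in wild type. The mutant arrays lay together at the bottom of its range and the other 2 arrays together above them. Both mutant values were close to the floor, at 1.00-fold of it in as1-1 and 1.25-fold in as2-1, against 3.22-fold in the AS2 overexpressing line and 3.72-fold in wild type. The steps of this order, from wild type down, were 1.16-fold to the AS2 overexpressing line, 2.57-fold to as2-1 and 1.25-fold to as1-1. The wide step thus falls between the AS2 overexpressing line and as2-1, whereas for scpl35 it falls between the AS2 overexpressing line and wild type.

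**Figure D1:**
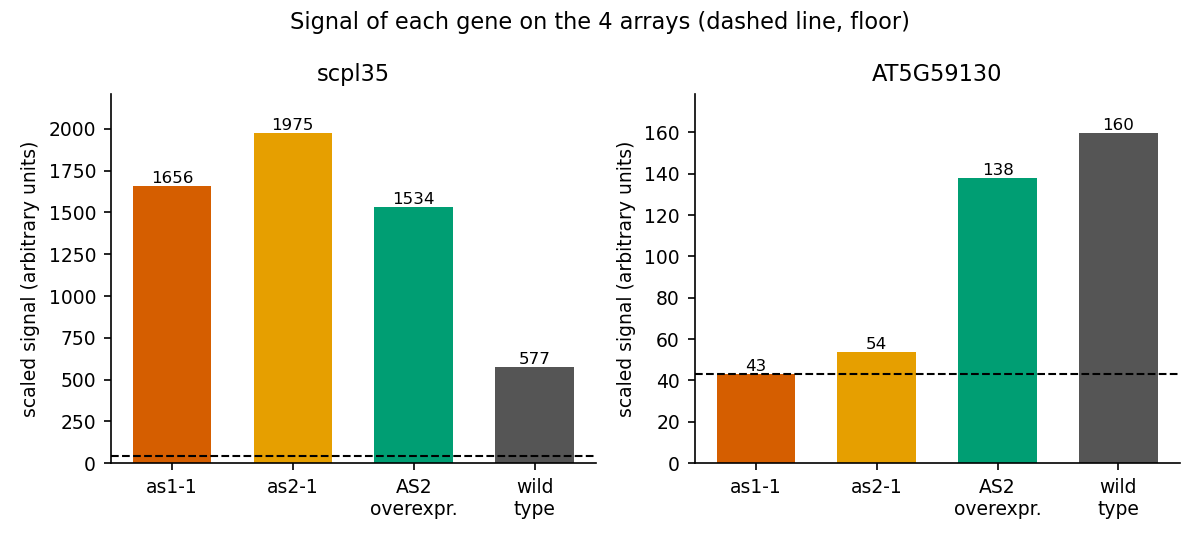
Scaled signal (arbitrary units, linear axis from 0) of scpl35 and AT5G59130 in as1-1, as2-1, the AS2 overexpressing line and wild type, 1 array per bar. The dashed line is the floor at 42.9 units. For scpl35 the wild type bar (577) stands below the other bars, and for AT5G59130 the as1-1 and as2-1 bars (43.0 and 53.6) lie at or just above the floor.

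The comparison of as1-1 with wild type asks what depends on AS1. On the log2 scale scpl35 stood 1.52 higher and AT5G59130 at -1.89 in as1-1. Across all 7744 named genes with a difference, 2.87% were at least 2-fold apart in either direction, 1.42% higher and 1.45% lower, and nothing is read from the members' calls, which these values chose. A difference as large as that of scpl35 on the higher side was held by 19 genes, itself included, and one as large as that of AT5G59130 on the lower side by 5. Among the 442 genes whose level lay within 0.5 log2 units of scpl35, the middle 95% of differences ran from -0.86 to 0.84. Among the 1842 genes that near the level of AT5G59130, it ran from -1.04 to 1.00. These bounds show how genes spread within the pair of arrays and are not an error of replication.

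The comparison of as2-1 with wild type asks the same of AS2. The log2 difference of scpl35 was 1.78, and 9 genes stood as high or higher. That of AT5G59130 was -1.58, and 18 genes stood as low or lower. At least 2-fold apart were 3.28% of 7752 named genes, 1.5% higher and 1.78% lower. The middle 95% of genes near the level of scpl35 ran from -1.0 to 0.86, and of those near AT5G59130 from -0.99 to 1.00. AT5G59130 was thus farther from wild type in as1-1, and scpl35 was farther from it in as2-1. These comparisons share the wild type array, so the members' values in them are not independent of each other.

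Gain of AS2 was set against wild type in the overexpressing line. The gene scpl35 was again higher, with a log2 difference of 1.41 that 10 genes reached or passed, and 1.91% of 7748 genes were at least 2-fold apart, 0.71% higher and 1.2% lower. AT5G59130 had a log2 difference of -0.21, inside the range of -0.79 to 0.72 that held the middle 95% of genes near its level, and 29.0% of all genes stood as low or lower. On the AS2 overexpressing array, then, only scpl35 of the pair stood at least 2-fold from wild type. The wild type array is also shared with both mutant comparisons.

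Pairs without the wild type array gave a second view of the same levels. Between as1-1 and as2-1 neither gene reached 2-fold. The log2 difference of as1-1 minus as2-1 was -0.25 for scpl35 and -0.32 for AT5G59130, and 0.729% of 7540 genes were at least 2-fold apart, 0.424% higher and 0.305% lower in as1-1. Against as1-1, the AS2 overexpressing line had scpl35 at -0.11 and AT5G59130 at 1.68, with 2.93% of 7604 genes at least 2-fold apart, 0.986% higher and 1.95% lower. Against as2-1 it had scpl35 at -0.36 and AT5G59130 at 1.36, with 2.79% of 7596 genes at least 2-fold apart, 1.04% higher and 1.75% lower. AT5G59130 was therefore higher with AS2 in excess than with either mutation, by 3.21-fold over as1-1 and 2.57-fold over as2-1. For scpl35 these comparisons showed no difference of 2-fold.

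**Figure D2:**
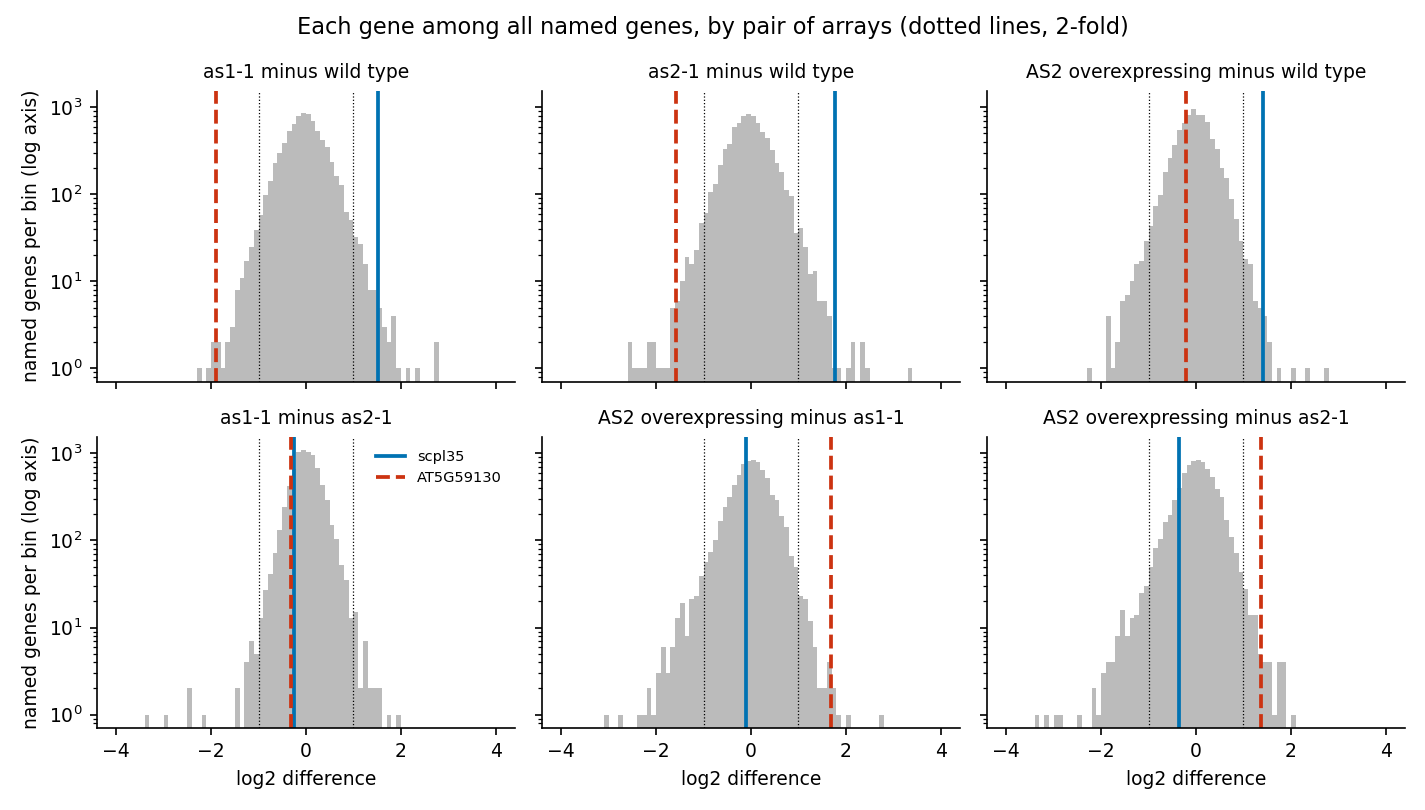
Number of named genes (log axis) by log2 difference in the 6 pairs of arrays, in bins of 0.1, with scpl35 as a solid line, AT5G59130 as a dashed line and 2-fold as dotted lines. The lines of both genes lie in opposite tails in the as1-1 and as2-1 panels against wild type, and close together between -0.25 and -0.32 in as1-1 minus as2-1.

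The arrays were next parted by pattern, over the 7910 named genes above the floor on at least 1 array. Wild type was at least 2-fold below all other arrays for 17 genes (0.215%), scpl35 among them, and 4 genes including scpl35 had a gap as wide as its 2.66-fold. Both mutants were at least 2-fold below both other arrays for 13 genes (0.164%), and 2 genes including AT5G59130 had a gap as wide as its 2.57-fold. These patterns were part of what was known when the pair was chosen, so the ranks describe the pair and support nothing.

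Genes whose levels ran most like each member were found by the root mean square difference of log2 profiles, each centred on its own mean, among 6820 other genes above the floor on all 4 arrays. Nearest to scpl35 were AT2G19310 (0.10 log2 units), AT4G30800 (0.12), AT2G33170 (0.17), AT2G32220 (0.18) and AT3G10530 (0.18). AT4G30800 had 558 units in as1-1, 582 in as2-1, 522 in the AS2 overexpressing line and 216 in wild type, with wild type again alone at the bottom. AT2G19310 had 113, 134 and 104 units in as1-1, as2-1 and the AS2 overexpressing line and 46.3 in wild type, which is close to the floor.

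Nearest to AT5G59130 were AT5G16030 (0.18), AT5G57345 (0.19), AT3G20270 (0.25), AT5G59400 (0.25) and AT3G08920 (0.26). AT5G16030 had 545 units in as1-1, 553 in as2-1, 1283 in the AS2 overexpressing line and 1510 in wild type, all far above the floor. It was picked for its likeness, so its split into mutant and other arrays lends nothing to the low AT5G59130 values. AT3G08920 had 469, 539 and 1122 units in as1-1, as2-1 and the AS2 overexpressing line and 1102 in wild type. None of these 10 genes is on the lists of protease or inhibitor genes. A profile over 4 arrays has few degrees of freedom, and the likeness is a description with no test.

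**Figure D3:**
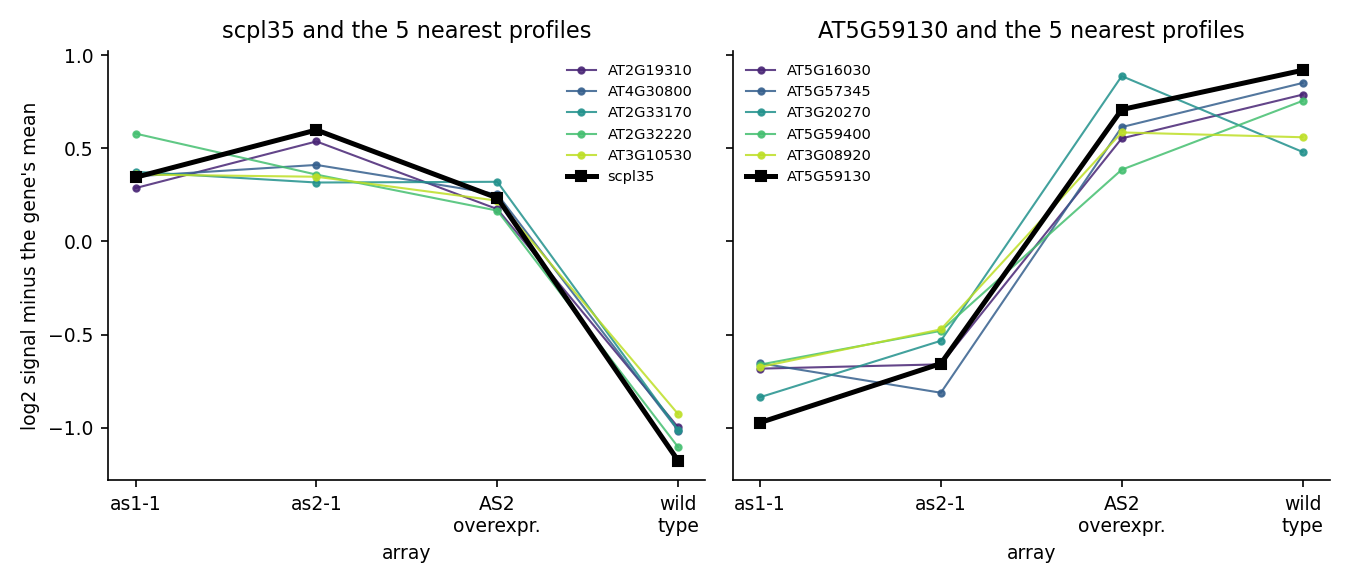
Log2 signal minus each gene's own mean on the 4 arrays, for scpl35 and AT5G59130 (black squares) and the 5 genes with the nearest profile (coloured circles). All 6 lines on the scpl35 side drop at wild type, and all 6 lines on the AT5G59130 side are low in as1-1 and as2-1 and high in the AS2 overexpressing line and wild type.

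The serine carboxypeptidase-like family was then looked at as a whole, to see whether scpl35 moved with its relatives. Of 51 listed loci, all of which carry the family name in the RefSeq table, 29 had a named probe set and 14 lay above the floor, all 14 on every array. Apart from scpl35, 13 relatives could be compared, and 0 of them were at least 2-fold from wild type in as1-1, 1 in as2-1 (higher) and 2 in the AS2 overexpressing line (1 higher and 1 lower). The corresponding background was 2.87%, 3.28% and 1.91% of all genes. The median log2 difference of the 13 relatives was 0.19 in as1-1 and 0.20 in as2-1, beside -0.03 and -0.04 for all genes. A 25th percentile floor admitted 19 relatives, and their as1-1 median was -0.03, beside -0.09 for all genes. Without any floor 28 relatives had a median of -0.04 in as1-1, beside -0.12 for all genes. The sign of the as1-1 median thus turned, while the list stayed above all genes. In the AS2 overexpressing line the median of the 13 relatives under the main floor was 0.07, beside -0.02 for all genes. The list thus stood 0.09 above all genes there. Over the alternatives this distance ran from 0.006 with quantile normalization to 0.115 with no floor.

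The relative that differed at least 2-fold on the higher side was scpl46. It had 103 units in as1-1, 131 in as2-1, 129.8 in the AS2 overexpressing line and 57.8 in wild type, with wild type lowest as for scpl35. Its log2 differences from wild type were 0.83, 1.18 and 1.17 in as1-1, as2-1 and the AS2 overexpressing line. With the floor at the 60th percentile, 128.5 units, which lies above its wild type value, both differences over 1 became lower bounds of 0.03 and 0.01. Wild type was lowest, by any amount, for 5 of the 14 family genes (scpl35, scpl46, SCPL49, SCPL45 and scpl50), where 22.5% of all genes had that pattern. SCPL49 had 1349, 981 and 1136 units in as1-1, as2-1 and the AS2 overexpressing line and 711 in wild type, a log2 difference of 0.92 in as1-1 that stayed under 2-fold.

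On the other side stood scpl31 and SCPL27, both lowest with AS2 in excess. The signal of scpl31 was 154 units in as1-1, 186 in as2-1, 62.7 in the AS2 overexpressing line and 156 in wild type. Its log2 difference in the AS2 overexpressing line was -1.32 from wild type, -1.30 from as1-1 and -1.57 from as2-1, and the floor at 128.5 units turned these into bounds of -0.28, -0.26 and -0.54. SCPL27 had 172.5 units in as1-1, 150.5 in as2-1, 78.9 in the AS2 overexpressing line and 131 in wild type. It was 2.19-fold lower in the AS2 overexpressing line than in as1-1, at -0.43 with the higher floor, and under 2-fold in its other comparisons. The relatives scpl25 (801 to 1154 units over the arrays) and scpl26 (656 to 818 units) stayed under 2-fold in all 6 pairs.

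The subtilases gave the same question for AT5G59130. Of 58 listed loci 46 had a named probe set, 19 lay above the floor on at least 1 array and 17 on all 4. The loci were listed from general knowledge of the family, and 14 of the 58 carry a subtilase name in the RefSeq table. Of the 18 relatives of AT5G59130 above the floor, 1 was at least 2-fold higher and 1 at least 2-fold lower in as1-1 than in wild type, and 0 had a difference that far in as2-1 or in the AS2 overexpressing line, where 2.87%, 3.28% and 1.91% of all genes did. SBT3.12 is not settled by this count, since it had 32.4 units in the AS2 overexpressing line, below the floor, against 78.9 in as1-1, 84.9 in as2-1 and 80.5 in wild type, and was at least 1.88-fold lower than wild type there. AT4G10550 lay above the floor in wild type alone, so it too has only bounds. The median log2 difference of the relatives was -0.15 in as1-1 and -0.22 in as2-1, beside -0.03 and -0.04 for all genes. A floor at the 25th percentile gave -0.05 in as2-1, beside -0.10 for all genes, and no floor gave -0.09, beside -0.15, so the place of the list relative to all genes turned. In the AS2 overexpressing line it was -0.11, which turned to 0.01 with centring on all probe sets and 0.03 with the floor at the 60th percentile. That centring moved the median of all genes by 0.11 in this pair.

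The relative lower in as1-1 was AT5G45650. It had 165.5 units in as1-1, 224 in as2-1, 419 in the AS2 overexpressing line and 398 in wild type. As for AT5G59130 the mutant arrays lay below both others, here well above the floor. Its log2 difference from wild type was -1.26 for as1-1, -0.83 for as2-1 and 0.08 with AS2 overexpressed, and the overexpressing line stood 2.53-fold above as1-1. Both mutants lay below both other arrays, by any amount, for 5 of the 19 subtilases (AT5G59130, AT5G45650, AT1G30600, AT4G20430 and AT5G44530), near the 24.5% of all genes with that pattern. The count includes AT5G59130, which was chosen with this pattern known.

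The opposite pattern, both mutants above both other arrays by any amount, was seen for 2 of the 19 subtilases, AT4G30020 and AT2G39850. The share of all genes with that pattern was not computed, so nothing is read from this count. AT4G30020 had 558.5 units in as1-1, 448.5 in as2-1, 287 in the AS2 overexpressing line and 258 in wild type, a log2 difference of 1.11 in as1-1 and 0.80 in as2-1. AT2G39850 had 275, 298 and 102 units in as1-1, as2-1 and the AS2 overexpressing line and 177 in wild type. It was 2.69-fold lower in the AS2 overexpressing line than in as1-1 and 2.92-fold lower than in as2-1, and under 2-fold from wild type on every array. The family thus held genes on both sides of wild type in the mutants.

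The remaining subtilases named here, all above the floor on every array, stayed under 2-fold in all 6 pairs. SBT1.3 had 1601 units in as1-1, 1677 in as2-1, 1505 in the AS2 overexpressing line and 2276 in wild type, the highest of its 4 values. ARA12, the seed mucilage subtilase, ranged from 933 to 1079 units, AT2G05920 from 1004 to 1131 and AT3G14240 from 954 to 1292. TPP2, tripeptidyl peptidase II of the cytosol, ranged from 675 to 932 units, and S1P, the site-1 protease of the Golgi, from 129 to 162.

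**Figure D4:**
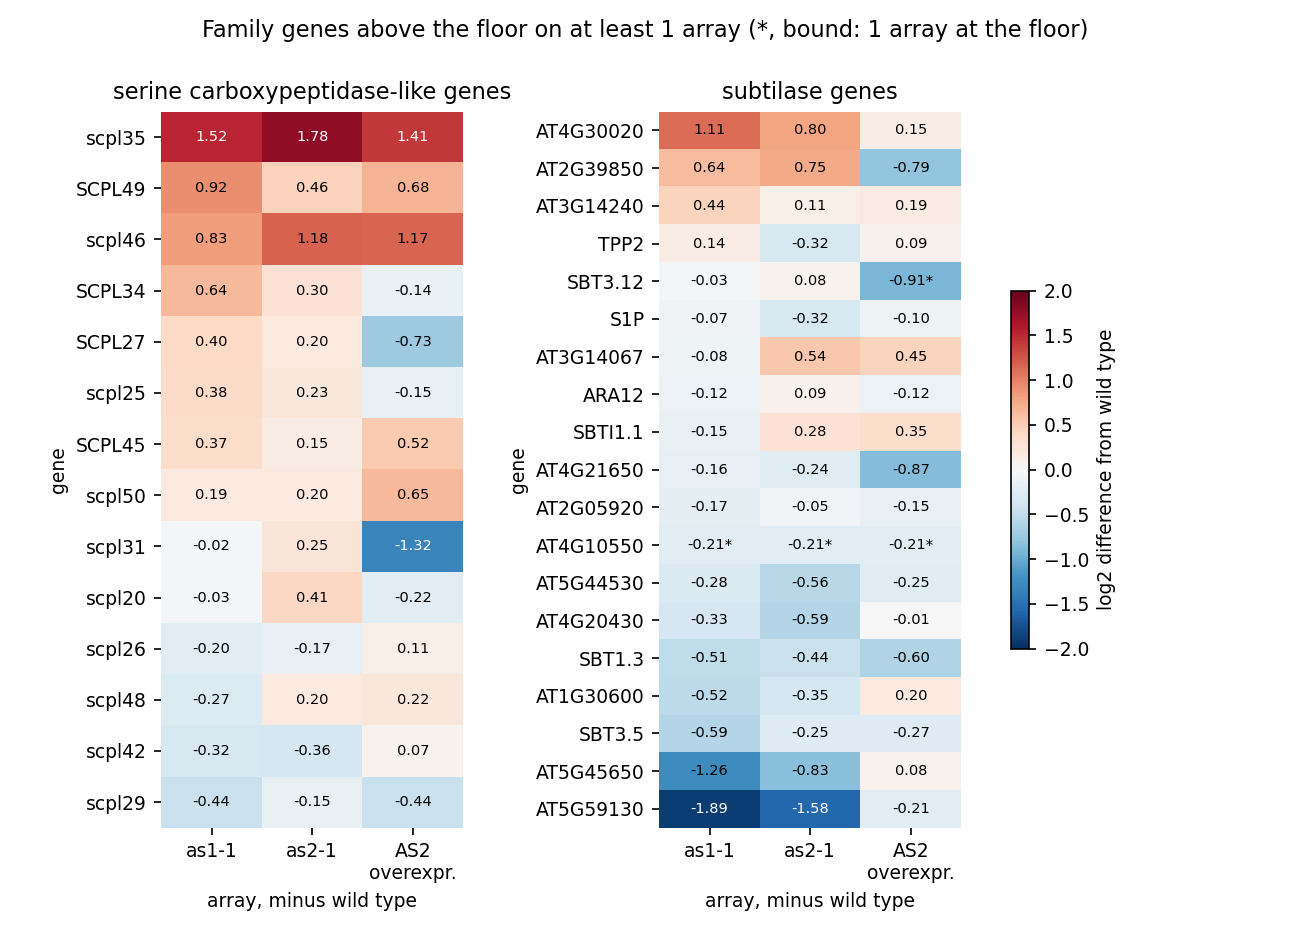
Log2 difference of as1-1, as2-1 and AS2 overexpressing from wild type (colour and printed value) for the 14 serine carboxypeptidase-like and 19 subtilase genes above the floor on at least 1 array, sorted by the as1-1 value; a star marks a bound with 1 array at the floor. The row of scpl35 is at the top of its family and that of AT5G59130 at the bottom of its own. Past 2-fold on the same side as the member of their family are scpl46 (1.18 in as2-1) and AT5G45650 (-1.26 in as1-1). Past 2-fold on the other side are scpl31 (-1.32 in AS2 overexpressing) and AT4G30020 (1.11 in as1-1).

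AT5G59130 lies in a run of subtilase genes on chromosome 5, and its neighbours were checked because similar copies can share hybridisation. The subtilase SBT4.13 is the next protein-coding gene on one side, with AT5G59100 and SBT4.12 farther along at 4 and 5 genes, and AT5G59190 lies 6 genes away on the other side. All 4 lay below the floor on every array. SBT4.12 had 36.1 units in as1-1, 29.5 in as2-1, 21.8 in the AS2 overexpressing line and 30.7 in wild type, and SBT4.13 ranged from 8.44 to 10.8 units. AT5G59100 reached 22.9 units and AT5G59190 20.5 units, both in wild type. AT5G59130 was thus the only one of these 5 genes above the floor, and from values below it no split between mutant and other arrays was read. One more listed subtilase of this run, AT5G59110, has no named probe set in the table and was not analysed here.

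**Figure D5:**
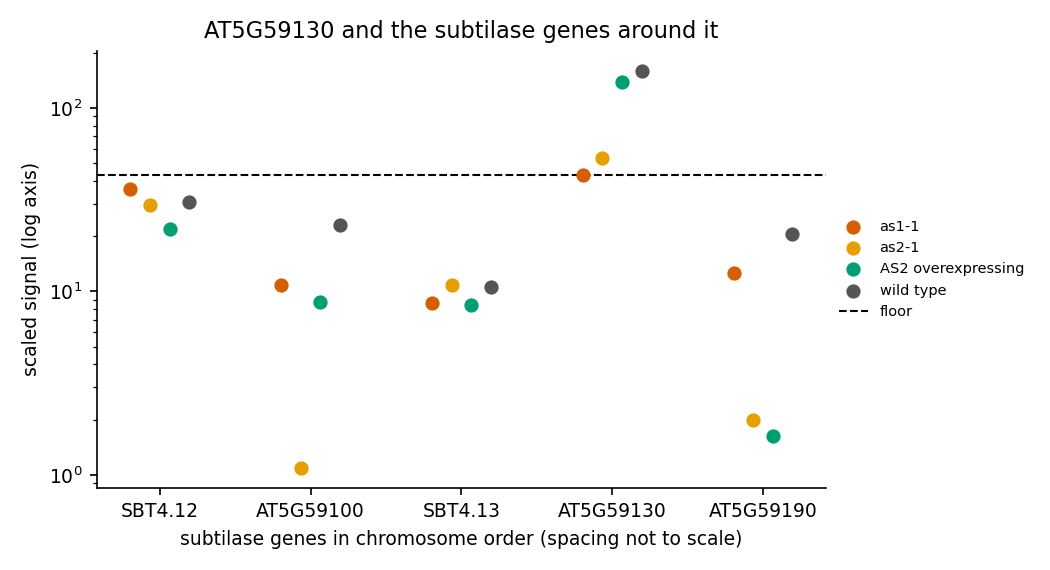
Scaled signal (log axis) of AT5G59130 and the 4 neighbouring subtilase genes with a named probe set, in chromosome order, in as1-1, as2-1, the AS2 overexpressing line and wild type; the dashed line is the floor at 42.9 units. Of the 20 points, 4 lie above the floor, all of AT5G59130.

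The nearest genes above the floor on each side of both members were also compared, and none of these 4 genes reached 2-fold in any pair. From 0.729% to 3.28% of all genes did in a single pair, so nothing is read from this count. AT5G08270, the gene beside scpl35, had log2 differences from wild type of -0.57 (as1-1), -0.08 (as2-1) and 0.06 (AS2 overexpressing), against 1.41 to 1.78 for scpl35. AT5G08200, the nearest gene above the floor on its other side at 4 genes' distance, had 0.34, 0.03 and -0.45. Beside AT5G59130, AT5G59140 had 470.5 units in as1-1, 453 in as2-1, 592 in the AS2 overexpressing line and 712 in wild type. Its log2 differences from wild type were -0.60, -0.65 and -0.27. Both mutants lay below both other arrays, by any amount, as they did for 24.5% of all genes. AT5G59080, 7 genes away on the other side, had -0.01, 0.17 and -0.52.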

How the data were processed

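The deposited table holds a linear signal intensity per probe set for 4 arrays, made by the authors from biotin-labelled cRNA per the labels' protocols; for the software and scaling behind them, the sources used here gave nothing. The columns were matched to genotypes by accession. Signals were put on the log2 scale (0 set to 0.1), centred on each array's median over the brighter part of its probe sets (mean level no lower than the median one), and raised to a floor at the 40th percentile. Where 1 array lay at the floor a difference was taken as a bound, and where both did none was computed. Of 22746 probe sets, 13513 carried 1 gene name, 503 several and 8730 none, and 13436 matched a locus of the RefSeq table (TAIR10.1), used for names and gene order. For genes with several probe sets the one with the highest mean was kept, which left 13355 genes. At least 2-fold apart means a log2 difference of at least 1 in size.

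The members, the family lists and the tests were chosen with earlier results of these data known. Genes named are the members, listed family genes at least 2-fold apart in any of 6 pairs, the 4 of each family with the highest mean signal, the 5 nearest profiles and the nearest measured genes; others named in the text were chosen after their values were seen. The 7 alternatives used limma 3.58.1 in R 4.3.3 for quantile and cyclic loess normalization. The calling step was run on simulated data with changes planted only in bright genes and with an assumed noise. That run does not bear on low signals such as those of AT5G59130, or on error between arrays. Python 3.11.15 and pandas 2.3.3 did the rest. Precision is limited by the number of arrays. No sequence of the members was among the sources used here, so none is shown.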

Additional observations from a re-analysis of the deposited data

How the results depend on the processing

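The 12 differences of the 2 genes were recomputed under 7 alternatives, and 79 of the 83 values kept their direction and their side of 2-fold. Both genes lay above the main floor on every array, so a lower floor or none could not change their values. For scpl35 all values kept direction and side. Its log2 differences from wild type were 1.52 to 1.61 in as1-1, 1.78 to 1.84 in as2-1 and 1.35 to 1.53 with AS2 overexpressed. All scpl35 signals lay above 128.5 units, so the floor at the 60th percentile could not act on them either. For AT5G59130 the exception was the floor at the 60th percentile, 128.5 units, under which both mutant values lie, so that differences became bounds by construction. They were then -0.31 in as1-1 and -0.31 in as2-1 against wild type, and 0.10 for AS2 overexpressing minus as1-1 and 0.10 for AS2 overexpressing minus as2-1, while as1-1 minus as2-1 had no value. When centred on all probe sets, its as1-1 value fell just under the floor and -1.84 against wild type was a bound. Of 95 values for family genes at least 2-fold apart, a check chosen after seeing the data, 89 stayed past 2-fold and 6 fell short, all 6 at the floor of the 60th percentile. Here too, a lower floor or none could not change a value with both arrays above the main floor.

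The number of genes at least 2-fold apart stayed within 1.5 times of its main value under each centring and normalization and moved by more with the floor. In the main setting against wild type it was 222 with as1-1, 254 with as2-1 and 148 with the AS2 overexpressing line, 55 for as1-1 minus as2-1, and 223 and 212 for the AS2 overexpressing line against as1-1 and as2-1. In the same order it was 660, 729, 542, 164, 519 and 510 when the floor was set at the 25th percentile, 97, 116, 43, 20, 102 and 100 at the 60th, and 3177, 3259, 2724, 2508, 2956 and 2925 with no floor, where low signals add differences by construction. Each gene of the pair had 1 probe set, so the choice of probe set was not an alternative for them. No paired analysis was possible because each genotype has 1 array.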

Other observations

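Other protease classes and protease inhibitors were also looked at. Of 12 listed cysteine protease genes 5 had a named probe set and 3 lay above the floor, and 0 of these had a difference of at least 2-fold in any pair, where from 0.729% to 3.28% of all genes did. For BETA-VPE this is not settled, since it had 38.2, 20.0 and 36.2 units in as1-1, as2-1 and the AS2 overexpressing line, all below the floor, against 77.1 in wild type, and was at least 1.8-fold lower than wild type on each. GAMMA-VPE, a vacuolar processing enzyme, had 384 units in as1-1, 415 in as2-1, 279.8 in the AS2 overexpressing line and 458 in wild type. Of 7 listed aspartic protease genes 3 lay above the floor, and AT1G62290 was the one past 2-fold, in its 3 pairs with the AS2 overexpressing line. Of all genes 1.91%, 2.93% and 2.79% were that far apart in this line against wild type, as1-1 and as2-1. The 3 calls share 1 value below the floor, and nothing is read from their number. AT1G62290 had 118 units in as1-1, 124 in as2-1, 36.8 in the AS2 overexpressing line, below the floor, and 97.9 in wild type. That puts it at least 2.28-fold below wild type with AS2 in excess. With the floor at the 60th percentile it had no value. APA1, the aspartic protease with a signal of 2093 units in as1-1, 2453 in as2-1, 2406 in the AS2 overexpressing line and 2537 in wild type, stayed under 2-fold.

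Of 14 listed inhibitor genes 8 had a named probe set and 3 lay above the floor. Of these 3, 0 were at least 2-fold apart in any pair. From 0.729% to 3.28% of all genes were in a single pair, and with so few genes nothing is read from this count. SERPIN1, a protease inhibitor of the serpin family, had 613 units in as1-1, 649 in as2-1, 578 in the AS2 overexpressing line and 438 in wild type. Wild type was its lowest array, as it was for 24.5% of genes above the floor on at least 3 arrays, with log2 differences of 0.49, 0.57 and 0.40. The other 2 inhibitors had other patterns, with AT1G71950 at 485, 424, 428 and 495 units in as1-1, as2-1, the AS2 overexpressing line and wild type, and AT1G17860 at 83.5, 119, 113 and 98.9 units in the same order.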
